A study of Mus musculus with 9 samples.

Results

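Id1, Id2, Id3 and Id4, the 4 genes for the inhibitor of DNA binding proteins, were measured on 9 Affymetrix microarrays of cells sorted from mouse back skin. They were taken by symbol, through every probe set (the group of short probes that reads a transcript) annotated to a single Id gene. This gave 8 probe sets, of which 7 were above the median of their own array on at least 3 of the 9 arrays and were kept. The brightest kept probe set stood for each gene, and all 4 genes were among the 7796 genes tested, out of 12393 named on the array. The mice were CD1 females carrying Lef1RFP, a red reporter under Lef1 control, and K14H2BGFP, a green histone fusion driven by the keratin 14 promoter, and every group shared both reporters. Bulge cells, from the region of the hair follicle that holds its stem cells, were sorted as RFP-, GFP+, CD34+ and Pcad low. Hair germ cells, from the small epithelial cluster just beneath the bulge, were RFP-, GFP+, CD34- and Pcad Hi. Dermal papilla cells, the mesenchymal cells below the germ, were RFP+, GFP- and negative for CD45, CD117, CD34 and Itga7. Days 43, 56 and 69 after birth, named early, middle and late telogen (the resting phase of the hair cycle), were sampled with 1 array per population and day. The labels do not give the number of mice behind an array, nor whether mice were shared between populations, so p-values here measure only the spread between these arrays.

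The Id proteins have a helix-loop-helix domain but no basic region for binding DNA. They pair with E proteins and other helix-loop-helix factors and keep them from DNA, and they are known for holding progenitor cells back from differentiation. Bone morphogenetic proteins (BMPs) bind paired receptor kinases that phosphorylate SMAD1 and SMAD5, which enter the nucleus with SMAD4, and the Id genes are among the best known direct targets of these SMADs. In the resting hair follicle, BMP signalling is known for its part in keeping bulge stem cells quiescent.

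The sequence just upstream of the start site is shown because the Id genes had the same order over the populations and are textbook targets of SMADs. RefSeq promoters (build GRCm38.p6) were matched for 3 of the 4 genes, Id2 (chr12:25096093-25096342, minus strand), Id3 (chr4:136143572-136143821, plus strand) and Id4 (chr13:48260866-48261115, plus strand), each as the 250 bases before the start. Capitals mark every match of the motifs searched on both strands, which were GGCGCC, a GC-rich site of SMAD1 and SMAD5, GTCTAG, a SMAD binding element, CANNTG, the E-box that E proteins bind, its form CACCTG, and TGACG, a core that ATF and CREB factors bind.
Id2: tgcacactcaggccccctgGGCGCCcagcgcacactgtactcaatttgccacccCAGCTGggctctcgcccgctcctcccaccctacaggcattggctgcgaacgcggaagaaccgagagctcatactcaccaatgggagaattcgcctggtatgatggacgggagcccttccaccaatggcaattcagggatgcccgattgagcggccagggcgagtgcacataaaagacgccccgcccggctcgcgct
Id3: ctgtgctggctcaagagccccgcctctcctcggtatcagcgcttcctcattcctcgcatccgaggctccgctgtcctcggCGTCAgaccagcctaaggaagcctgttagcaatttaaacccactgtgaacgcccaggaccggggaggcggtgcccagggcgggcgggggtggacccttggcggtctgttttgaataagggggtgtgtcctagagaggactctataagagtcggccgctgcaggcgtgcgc
Id4: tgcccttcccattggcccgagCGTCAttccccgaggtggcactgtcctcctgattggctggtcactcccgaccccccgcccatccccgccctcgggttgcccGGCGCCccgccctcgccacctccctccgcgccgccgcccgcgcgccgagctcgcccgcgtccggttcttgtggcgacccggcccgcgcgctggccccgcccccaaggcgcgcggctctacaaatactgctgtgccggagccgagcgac
The GGCGCC motif was present in the Id2 window, from -231 to -226 relative to the start, and in the Id4 window, from -148 to -143, against 9.59% of the 32851 promoter windows of the same length. The Id2 window also held an E-box, CAGCTG, from -196 to -191, and 66.2% of all windows held some E-box. Id3 and Id4 held CGTCA, which is TGACG on the other strand, from -170 to -166 and from -229 to -225 respectively, against 17.8% of windows. GTCTAG, present in 7.11% of windows, and CACCTG, in 17.2%, did not occur in these letters. GC content was 62.8% for Id2, 62.8% for Id3 and 75.6% for Id4, with a median of 52.4% over all windows.

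Values below are the deposited signals, which are intensities on a linear scale and can be compared between arrays for 1 probe set but not between genes. Differences and tests are on log2(signal + 16), from a limma model of population and day fitted to all tested genes, with p-values adjusted over the 7796 genes. A gene was called where the adjusted p was below 0.05. Median signals of the arrays ran from 39.9 to 56.3, and the number of arrays limits the precision. For the label check, 5 of the 9 tested dermal papilla markers passed the filter through the dermal papilla arrays alone, so their direction was set by it, and the other 4 were called higher in dermal papilla than in bulge. All 11 tested keratinocyte markers were called lower there. Cdh3, the P-cadherin gene of the sort, was above the array median on 0 of the 9 arrays, so it checks nothing here.

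The Id2 gene was high in bulge, lower in hair germ and lowest in dermal papilla. In bulge its signal was 4050.5 on day 43, 4080.2 on day 56 and 4117 on day 69. Hair germ arrays read 897 on day 43, 1054 on day 56 and 675 on day 69, and dermal papilla arrays read 173, 139 and 487 on the same days. Every bulge array stood above every hair germ array, and every hair germ array above every dermal papilla array. The mean log2 levels were 12.00 ± 0.012 (SD, n = 3) in bulge, 9.78 ± 0.32 (n = 3) in hair germ and 7.94 ± 0.91 (n = 3) in dermal papilla. The bulge values spanned 0.023 log2 units, and 0.475% of the tested genes spanned less in bulge. In these bulk samples, fewer cells of a type that express a gene and less RNA per cell cannot be told apart.

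Id3 had the same order of means with more spread between days. Its bulge signals were 1710 on day 43, 1447 on day 56 and 1723 on day 69. In hair germ it was 326 on day 43, 919 on day 56 and 361 on day 69, and in dermal papilla it was 109.7, 513 and 493. The bulge arrays lay above all others. The other two populations overlapped, because dermal papilla on days 56 and 69 was above hair germ on days 43 and 69. Mean log2 levels were 10.68 ± 0.14 (SD, n = 3), 8.95 ± 0.80 (n = 3) and 8.34 ± 1.18 (n = 3) in bulge, hair germ and dermal papilla.

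Id4, the member known in brain and in germline stem cells, was high in both epithelial populations and low in dermal papilla. Bulge signals were 1455 on day 43, 1283 on day 56 and 1571 on day 69. Hair germ signals were 553, 922 and 580.1 on those days, and dermal papilla signals were 63.3, 33.6 and 111. No population overlapped another. In log2 units the means were 10.50 ± 0.15 (SD, n = 3), 9.41 ± 0.40 (n = 3) and 6.31 ± 0.68 (n = 3).

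Id1, the member most often used as a readout of BMP signalling, overlapped between the epithelial populations. It read 534 on day 43, 427 on day 56 and 298 on day 69 in bulge. The hair germ signals were 138 on day 43, 708 on day 56 and 183 on day 69, so that the day 56 array stood above all bulge arrays and the remaining hair germ arrays stood below them. Dermal papilla signals were 80.8, 74.9 and 89.0, below every epithelial array. Mean log2 levels were 8.73 ± 0.41 (SD, n = 3) in bulge, 8.14 ± 1.20 (n = 3) in hair germ and 6.61 ± 0.10 (n = 3) in dermal papilla. All 4 Id genes thus had their highest mean in bulge and their lowest in dermal papilla, an order shown by 18.6% of the tested genes.

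**Figure D1:**
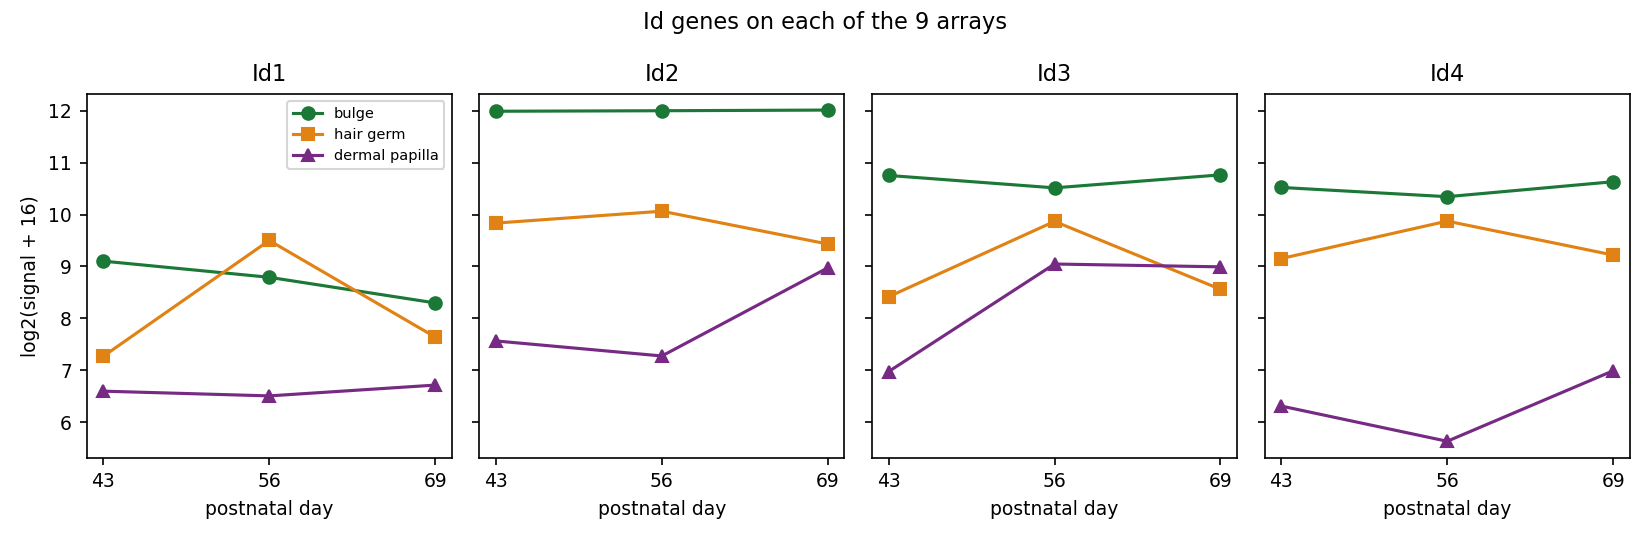
Level of each Id gene on each array, as log2(signal + 16), against postnatal day (43, 56, 69). Each point is 1 array and lines join the arrays of a population (green circles bulge, orange squares hair germ, purple triangles dermal papilla). Id2 in bulge stayed between 4050.5 and 4117 in signal, while Id1 in hair germ ran from 138 to 708.

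The first comparison asks how the 2 epithelial compartments differ, which the series design names as a question. Id2, Id3 and Id4 were lower in hair germ than in bulge on each of the 3 days, and Id1 was not called. Id2 was 4.67-fold lower, with a log2 difference of -2.22 ± 0.36 (SE) and a limma adjusted p of 0.00186. Id3 was 3.32-fold lower, at -1.73 ± 0.42 (adjusted p = 0.0149), and Id4 was 2.12-fold lower, at -1.08 ± 0.32 (adjusted p = 0.0363). Id1 differed by -0.59 ± 0.43 with a 95% interval from -1.54 to 0.35 (adjusted p = 0.368), and hair germ was below bulge on 2 of the 3 days. The count of 3 of 4 Id genes lower stands beside 7.56% of all tested genes, and the 3 of 4 whose arrays did not overlap stand beside 15%.

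These hair germ calls differed in how much they rested on single arrays. Id2 stayed called without any single array, with differences from -2.53 to -1.79. Id3 was not called without the bulge array of day 43 (-1.22, adjusted p = 0.0999), that of day 69 (-1.75, adjusted p = 0.0550) or the hair germ array of day 69 (-1.35, adjusted p = 0.0637). Id4 lost its call without any of the bulge arrays (-1.01, -1.11 and -1.14 for days 43, 56 and 69) and without the hair germ array of day 43 (-0.95) or day 69 (-0.78), with adjusted p from 0.0994 to 0.153. Id1 was called without the hair germ array of day 56, at -1.29 (adjusted p = 0.0212). The count of Id genes called therefore ran from 1 to 4 when arrays were left out in turn.

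An RNA quality measure moved with the same arrays. The ratio of GAPDH control signals at the 3′ and 5′ ends, which is higher where fewer long copies were labelled, reached 8.34 on day 43 and 7.90 on day 69 in hair germ, with 2.97 on day 56. In bulge it lay between 3.96 and 5.09, and in dermal papilla it was 6.62, 4.13 and 3.77 on the 3 days. Hair germ on days 43 and 69, the arrays with the highest ratios, were also the hair germ arrays with the lower signals of all 4 Id genes. Without the 3 arrays whose ratio was above 6, hair germ had 1 array left, which was assumed to vary like the others, and 0 of the 4 Id genes were called against bulge, while 543 of all tested genes were. The differences were then -1.52 for Id2 (adjusted p = 0.119), -0.72 for Id3 (adjusted p = 0.187), -0.20 for Id4 (adjusted p = 0.799) and 0.89, in the opposite direction, for Id1 (adjusted p = 0.182). On day 56 alone, with 1 array each and no test, hair germ minus bulge was 0.71 for Id1, -1.94 for Id2, -0.65 for Id3 and -0.47 for Id4. The part of RNA quality in the Id differences was not tested beyond these values.

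**Figure D2:**
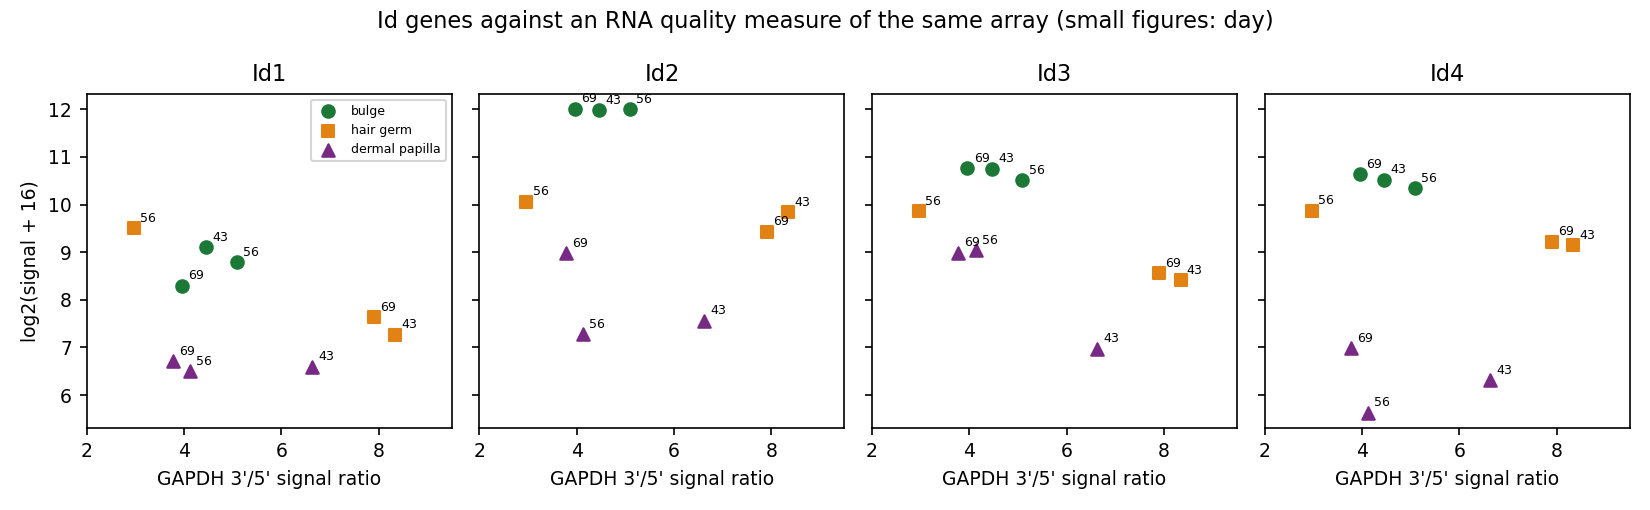
Level of each Id gene, as log2(signal + 16), against the GAPDH 3′/5′ signal ratio of the same array, for the 9 arrays, with the postnatal day written beside each point. The hair germ arrays at ratios of 7.90 and 8.34 sit below the hair germ array at 2.97 for every Id gene, and Id2 in bulge sits above all other arrays.

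The second comparison set the mesenchymal dermal papilla against the bulge. All 4 Id genes were lower in dermal papilla, on each of the 3 days and with no overlap of arrays, beside 19% of tested genes called lower and 28.3% with lower arrays that did not overlap. Id4 differed by -4.19 ± 0.32, or 18.2-fold (limma adjusted p = 1.9e-06), and Id2 by -4.06 ± 0.36, or 16.7-fold (adjusted p = 6.61e-06). Id3 differed by -2.34 ± 0.42, or 5.06-fold (adjusted p = 0.00107), and Id1 by -2.12 ± 0.43, or 4.36-fold (adjusted p = 0.00246). The 4 calls held without any single array, and they held without the 3 arrays of high GAPDH ratio, where Id1 was at -1.93 (adjusted p = 0.000858) and Id3 at -1.62 (adjusted p = 0.000811).

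Against hair germ, dermal papilla was lower in Id1, Id2 and Id4, and Id3 was not called. Id4 was 8.60-fold lower, at -3.10 ± 0.32 (limma adjusted p = 1.9e-05), Id2 was 3.58-fold lower, at -1.84 ± 0.36 (adjusted p = 0.00213), and Id1 was 2.89-fold lower, at -1.53 ± 0.43 (adjusted p = 0.0151). Id3 differed by -0.61 ± 0.42 with an interval from -1.53 to 0.31 (adjusted p = 0.275). On day 43 its dermal papilla level was below that of hair germ by -1.44, on day 56 by -0.82, and on day 69 it was above by 0.43. The 3 of 4 called lower stand beside 23.8% of tested genes, and the 3 of 4 without overlap beside 28.1%. The Id1 call was lost without the dermal papilla array of day 56 (-1.12, adjusted p = 0.101) or the hair germ array of day 56 (-0.84, adjusted p = 0.0606).

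**Figure D3:**
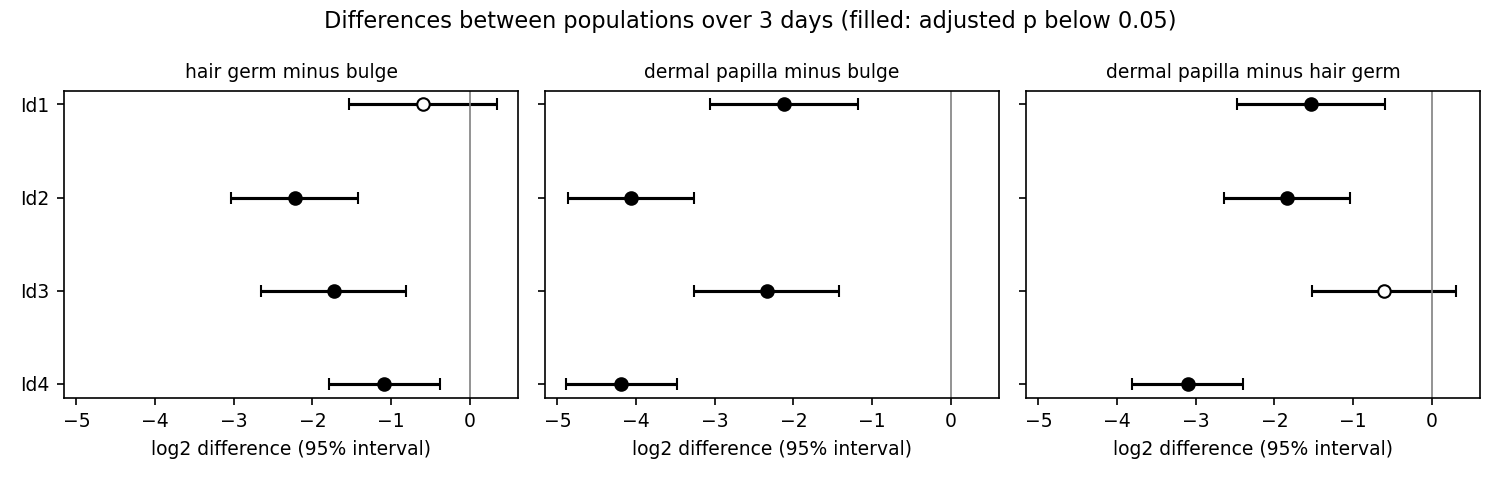
Log2 difference of each Id gene between populations from the limma model over 9 arrays, with 95% intervals. Filled points have an adjusted p below 0.05. Id1 between hair germ and bulge (-0.59) and Id3 between dermal papilla and hair germ (-0.61) are the 2 open points.

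The order of levels was thus bulge, hair germ, dermal papilla for each gene, and neighbours did not differ beyond their spread for Id1 in bulge and hair germ and for Id3 in hair germ and dermal papilla. Keratinocyte markers gave a measure of epithelial RNA in the dermal papilla sort. The summed signal of the 11 tested keratinocyte markers, of 12 listed, was between 592 and 1783 in dermal papilla against 39044 or more in every epithelial array. Its highest dermal papilla value was on day 43. On that day the sum was 1783 in dermal papilla and 39044 in bulge. Id2 read 173 and 4050.5 on the same 2 arrays, and Id4 read 63.3 and 1455. Endothelium is another known site of Id1 and Id3 expression. Of the 12 endothelial markers, 2 were tested, and Pecam1, Cdh5, Kdr, Tie1, Tek, Emcn and Robo4 were above the array median on 0 arrays. Vwf, Cldn5 and Egfl7 were each above it on 1 array, dermal papilla on day 56. They read 63.3, 75.6 and 47.6 there, where the array median was 43.8. On the epithelial arrays Vwf read 0.40 to 1.77, while Cldn5 reached 52.6 and Egfl7 39.9. The tested pair was Esam and Plvap. Their summed signal was 28.1 to 44.0 in bulge, 21.1 to 129 in hair germ and 471 to 953 in dermal papilla. Most of the dermal papilla sum came from Plvap, at 426, 882 and 604 on days 43, 56 and 69. Plvap passed the filter through dermal papilla alone, so the filter set its direction. Esam read 45.0, 71.0 and 42.0 there and was not called between populations. The part of epithelial or endothelial RNA in the Id values was not tested.

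Id2 and Id4 were each read by 3 probe sets, which tell whether the differences depended on the probes. For Id4 the remaining probe sets, 1423259_at and 1423260_at, gave the same order as the representing 1450928_at. 1423259_at read 909, 725 and 843 in bulge, 264, 374 and 189 in hair germ, and 24.9, 35.8 and 122 in dermal papilla on days 43, 56 and 69. Populations did not overlap on this probe set. Its differences were -1.57 (adjusted p over 12801 probe sets 0.0213) for hair germ minus bulge and -2.09 (adjusted p = 0.00194) for dermal papilla minus hair germ. The values of 1423260_at were lower in range, at 216, 243 and 149 in bulge, 96.3, 104.5 and 92.2 in hair germ and 46.2, 26.7 and 48.0 in dermal papilla. It gave -0.92 (adjusted p = 0.0389) and -1.04 (adjusted p = 0.0118) for the same comparisons.

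The second Id2 probe set was above the array median in bulge alone. The representing 1435176_a_at was above the array median on all 9 arrays. 1422537_a_at read 292, 254 and 324 in bulge, 3.81, 41.9 and 5.42 in hair germ, and 2.82, 9.91 and 44.4 in dermal papilla. It passed the filter through the 3 bulge arrays, and all 6 other arrays lay at 0.068 to 0.92 of their array's median, so its bulge-high direction was required by the filter and it gives no order of hair germ and dermal papilla. The weakest Id2 probe set, 1453596_at, was between 40.2 and 56.4 in bulge, 26.3 and 47.5 in hair germ and 8.66 and 28.0 in dermal papilla, and it was not kept. The order of Id2 in hair germ and dermal papilla was therefore read by 1 probe set. Of the 6 Id probe sets above the median in more than 1 population and tested singly, 5 were lower in hair germ than in bulge (6.46% of all kept probe sets), 6 were lower in dermal papilla than in bulge (17%) and 5 were lower in dermal papilla than in hair germ (22.2%).

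**Figure D4:**
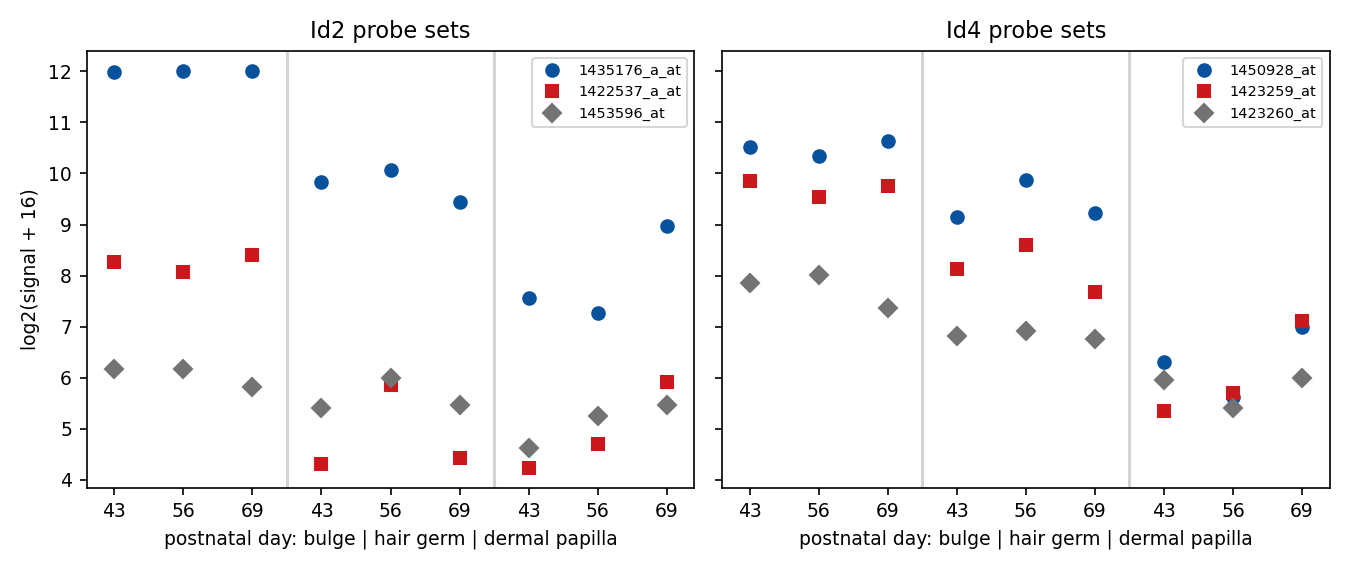
Level of each of the 3 Id2 and 3 Id4 probe sets on the 9 arrays, as log2(signal + 16), ordered by population and then by postnatal day. The Id4 probe sets fall from bulge to dermal papilla, while 1422537_a_at of Id2 is below the array median in hair germ (3.81 to 41.9) and dermal papilla (2.82 to 44.4).

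The series also follows each population through telogen. Over the 3 populations, limma called 0 of the 7796 genes between any days (0%), and so none of the Id genes. At an unadjusted p below 0.05 there were 565 genes (7.25%) for day 69 minus day 43, 398 (5.11%) for day 56 minus day 43 and 551 (7.07%) for day 69 minus day 56. Id3 was the 1 Id gene among them, for day 56 minus day 43, at 1.10 ± 0.42 with an interval from 0.18 to 2.01 (limma adjusted p = 0.845), higher on day 56 in 2 of the 3 populations. Its difference between days 69 and 43 was 0.72 (adjusted p = 0.754), higher in 3 of 3 populations. For days 69 and 43 the model gave -0.11 for Id1, 0.34 for Id2 and 0.29 for Id4, with adjusted p from 0.849 to 0.971.

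Within a population each day is 1 array, so the following are differences between arrays with no test. In bulge none of the 4 Id genes differed 2-fold between any pair of days, where 5.14% of tested genes did. The widest bulge difference was that of Id1, -0.81 on the log2 scale from day 43 to day 69. In hair germ, day 56 was at least 2-fold above both other days for Id1 and Id3, 2 of the 4 Id genes, beside 1.76% of tested genes. Id1 was 4.70-fold above day 43 there and Id3 2.74-fold, while Id2 was 1.17-fold and Id4 1.65-fold above it. The span of Id1 over the 3 hair germ arrays, 2.23 log2 units, was wider than that of 98.9% of tested genes. Day 56 is the hair germ array with the low GAPDH ratio, 2.97. Summed markers of some other cell types also peaked on it, and those of others did not. On days 43, 56 and 69 in hair germ, the leukocyte sum was 216, 278 and 352. The endothelial sum was 21.1, 43.8 and 129, and the Schwann cell sum was 175, 117 and 215. These 3 sums were highest on day 69. That of the pericyte and smooth muscle markers was 312, 600 and 559. Of the melanocyte markers 4 of 7 were tested, and the pigment cell genes Dct, Tyrp1 and Pmel together read 2136 on day 43, 4207 on day 56 and 1588 on day 69 in hair germ, against 95.9 to 129 in bulge and 29.2 to 92.8 in dermal papilla. The remaining one, Mitf, was instead high in bulge, at 2115 to 2864 against 423 to 678 in hair germ (-2.18, limma adjusted p = 8.45e-05). The summed signal of the 9 tested dermal papilla markers, of 10 listed, was 190, 556 and 273 on days 43, 56 and 69 in hair germ, and that of the 8 dermal fibroblast markers was 329, 1197 and 515. Both sums were 13087 or more in every dermal papilla array. The part of these markers in the Id1 and Id3 values was not tested.

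In dermal papilla, the span over the 3 days was wider than that of 97.8% of tested genes for Id2 and 98.9% for Id3. For Id4 it was wider than that of 94.6%, and for Id1 than that of 10.2%. Id3 was 4.21-fold above day 43 on day 56 and 4.05-fold on day 69, and a day 43 value at least 2-fold below both other days was found for 1 of 4 Id genes and 2.4% of tested genes. Id2 was highest on day 69, 2.66-fold above day 43 and 3.25-fold above day 56, a pattern of at least 2-fold above both other days that 1 of 4 Id genes and 1.4% of tested genes had. Id4 was 2.56-fold higher on day 69 than on day 56 and 1.60-fold higher than on day 43. Its day 56 signal, 33.6, was at 0.77 of the array median. The other Id4 probe sets read 24.9, 35.8 and 122 (1423259_at) and 46.2, 26.7 and 48.0 (1423260_at) on days 43, 56 and 69. Id1 stayed within 0.21 log2 units over the days. Other values moved with these arrays. The GAPDH ratio was 6.62 on day 43 and 3.77 on day 69, and the summed signal of the 3 tested leukocyte markers, of 10 listed, was 61.9, 247 and 551 on days 43, 56 and 69. Most of it came from Laptm5, at 19.3, 238 and 522, whereas Ptprc, which encodes CD45, was at 7.01, 0.46 and 6.45. The endothelial sum was 471, 953 and 646 on those days. The dermal fibroblast sum was 20506, 15669 and 15877, though Dcn within it read 87.7, 509 and 555. Of these 8 markers, 2 were at least 2-fold higher on day 56 than on day 43, and 2 were at least 2-fold lower. The pericyte and smooth muscle sum was 1313, 954 and 1398, and Acta2 within it read 122, 234 and 238. Dermal papilla markers were at least 2-fold higher on day 69 than on day 43 for 7 of 9, with summed signals of 14841, 13087 and 18414 on the 3 days, and Corin, for example, read 355, 380.3 and 1162. Keratinocyte markers were at least 2-fold lower on day 69 for 6 of 11 and higher for 1, with sums of 1783, 601 and 592, and Krt15 read 264, 3.52 and 0.69. The part of these values in the Id differences was not tested.

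The genes whose profiles over the 9 arrays were most like those of the Id genes were found by the root mean square (RMS) difference of log2 levels, each centred on its own mean. For Id2 these were Cxcl14, a chemokine gene, at an RMS difference of 0.32, Fst, the BMP and activin antagonist follistatin, at 0.37, Cadm1, a cell adhesion gene, at 0.38, Ssx2ip at 0.45 and C1qtnf12 at 0.51. Id4 was nearest to Gm16136 (0.36), Trim59 (0.38), Smpdl3b (0.40), Tenm2 (0.40) and Esyt3 (0.41). The nearest profiles to Id1 were Efna1, an ephrin ligand, at 0.42, Hoxa5 at 0.43, Mif, Sema4g and Ctf1, each at 0.44. For Id3 they were Atp8a2 (0.46), Trgv4 (0.48), Dnaja4 (0.49), the melanocyte regulator Mitf (0.50) and Ephx1 (0.50). Among the Id genes themselves, Id2 and Id4 were closest, at 0.61, where Id4 ranked 22 of 7795 genes by likeness to Id2. Id1 and Id3 were next at 0.80, with Id3 at rank 468 for Id1, and Id3 and Id4 were farthest apart at 1.25. Id4 ranked 3608 by likeness to Id3, where the median RMS difference over all genes was 1.28. Id2 ranked 2947 by likeness to Id1, at 1.07, where that median was 1.13. These values describe 9 arrays that share populations and days.

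The other genes of the BMP pathway were described by role from lists of ligands, antagonists, receptors, SMADs and response genes. Ligand RNA was not ordered as the Id genes were. Of 12 ligands 5 were tested. In hair germ against bulge, Bmp4 and Bmp2 were called higher, 2 of 5 beside 12.2% of all tested genes, and Bmp6 and Gdf10 were called lower. The lower 2 of 5 stand beside 7.56%. Bmp2 was at 1.20 (limma adjusted p = 0.0384), a call lost when arrays were rescaled by quantiles (1.09) or median centred (0.99), without the filter or the variance trend (1.20), and without the bulge array of day 56 (0.84) or 69 (1.09), the hair germ array of day 43 (1.13) or 56 (1.03), or the dermal papilla array of day 56 (1.20, adjusted p = 0.0537). Gdf10 was at -1.53 (limma adjusted p = 0.0208) and was not called without the bulge array of day 43 (-1.06) or 56 (-1.54) or the hair germ array of day 43 (-0.92). Bmp4, a ligand of the mesenchyme, read 23.7, 13.4 and 18.6 in bulge, 185, 205 and 114 in hair germ and 4470.3, 4124 and 4679 in dermal papilla, which made it 2.38 higher in hair germ than in bulge (limma adjusted p = 0.000101) and 7.01 higher in dermal papilla (adjusted p = 1.85e-08). Its order over the populations was the reverse of that of the Id genes. Bmp6 was highest in bulge, with signals of 246, 265 and 226 against 15.4, 4.30 and 5.11 in hair germ and 43.7, 45.1 and 209.7 in dermal papilla. It differed by -3.46 in hair germ (adjusted p = 0.000361) and -1.48 in dermal papilla (adjusted p = 0.0206) against bulge, the latter not called without the dermal papilla array of day 43 (-1.05) or 56 (-1.20) or the bulge array of day 43 (-1.41) or 56 (-1.21), nor without the arrays of high GAPDH ratio (-1.15). Against bulge, dermal papilla was called higher for 4 of 5 ligands (16.1% of tested genes), the others being Gdf10 at 4.87, Bmp7 at 2.76 and Bmp2 at 2.30, and against hair germ it was higher for 5 of 5 (15.5%).

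Of 14 listed antagonists that bind BMPs or their relatives outside the cell, 8 were tested. Like Id2, Id3 and Id4, 4 of the 8 were called lower in hair germ than in bulge, beside 7.56% of all tested genes. None was called higher, beside 12.2%. Grem1, gremlin, differed by -3.58, Fst by -2.01, Fstl1 by -1.83 and Nbl1 by -1.56 (limma adjusted p from 2.25e-05 to 0.0164). Fstl1 was not called without the bulge array of day 43 (-1.55) or the hair germ array of day 43 (-1.26) or 69 (-1.66). Without the 3 arrays of high GAPDH ratio Grem1 stayed called (-3.37, adjusted p = 0.00274), and Fst (-1.41, adjusted p = 0.177), Fstl1 (-0.35, adjusted p = 0.631) and Nbl1 (-1.38, adjusted p = 0.0620) did not. The median of the 8 was -1.22, and that of all tested genes was 0.10. Against bulge, dermal papilla was higher in Fstl1 (2.39), beside 16.1% of tested genes, and lower in Grem1 (-4.79) and Fst (-3.54), beside 19%. Chrd, chordin, was above the array median in dermal papilla alone, at 53.0, 62.5 and 115.5 against 2.28 to 12.4 in bulge, so the filter set its direction.

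Among receptors and SMAD transducers, Acvr2a alone was called between hair germ and bulge. Of 10 listed receptors and coreceptors 7 were tested. In hair germ 1 was called lower, beside 7.56% of all tested genes, and 0 were called higher, beside 12.2%. Acvr2a, a type 2 receptor, was at -0.70 (limma adjusted p = 0.0363), a call lost without any single bulge or hair germ array. With the mean of its probe sets Acvr2a was at -0.13 (limma adjusted p = 0.753). Bmpr1a, the main type 1 receptor of skin epithelium, read 909, 854 and 1018 in bulge and 688, 663 and 897 in hair germ and was not called. Of the 3 tested SMAD transducers none was called between hair germ and bulge, beside the same shares of tested genes. Smad1 was at -0.17, Smad4 at 0.54 and Smad5 at 0.54. Dermal papilla was lower in Smad1 by limma against bulge (-1.41, adjusted p = 0.000710) and against hair germ (-1.24, adjusted p = 0.00160). Without the 3 arrays of high GAPDH ratio, which leaves 1 hair germ array, the latter was -0.88. Against bulge 1 of 3 SMAD transducers was called lower, beside 19% of tested genes. Against hair germ 2 of 3 were, beside 23.8%, the other being Smad4 (-0.72), not called under quantile normalization (-0.51).

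Most of the other tested genes known to respond to BMP were, like 3 of the Id genes, lower in hair germ than in bulge. Of 7 tested of 12 listed, 5 were called lower in hair germ than in bulge, beside 7.56% of all tested genes, and 1, Gata3, was called higher at 1.26, beside 12.2%. Smad6, an inhibitory SMAD, read 279, 274 and 217 in bulge and 37.2, 61.4 and 36.1 in hair germ, a difference of -2.18 (limma adjusted p = 0.00192). Hey1, a helix-loop-helix repressor, read 172, 175 and 94.4 in bulge and 8.12, 35.7 and 8.66 in hair germ, a difference of -2.34 (adjusted p = 0.00431). Bambi, a decoy receptor, was at -1.32, Msx1 at -0.91 and Smad7, also an inhibitory SMAD, at -0.90 (adjusted p from 0.0414 to 0.0485). Smad6, Smad7 and Bambi also made up the 3 of 5 tested intracellular inhibitors called lower. The median over the 7 response genes was -0.91, against 0.10 over all genes. In dermal papilla against bulge 1 of the 7 was lower, Gata3 at -4.05, and 1 was higher, Bambi at 2.61, beside 19% and 16.1% of tested genes. Against hair germ, dermal papilla was higher in Bambi (15.3-fold), Smad6 (2.84-fold) and Hey1 (2.82-fold), which were 3 of 7 beside 15.5%. Of these, Bambi stayed called without the 3 arrays of high GAPDH ratio (3.18, adjusted p = 0.000528), and Smad6 (0.78, adjusted p = 0.355) and Hey1 (0.93, adjusted p = 0.330) did not. Hey1 was also not called without the dermal papilla array of day 69 (0.80) or the hair germ array of day 43 (1.39) or 69 (1.21).

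These response genes shared the limits of the Id genes. Without the 3 arrays of high GAPDH ratio 0 of the 7 were called in either direction between hair germ and bulge, with Smad6 at -1.45, Hey1 at -1.35 and Bambi at -0.19. Among the ligands in that setting, Bmp6 (-3.27), Bmp4 (2.89) and Bmp2 (1.85) were called and Gdf10 (-0.93, adjusted p = 0.212) was not. The Bambi, Msx1 and Smad7 calls were also lost without any of the 3 bulge arrays, which left 2 of the 7 called lower. These calls were lost without the filter as well. Bambi was not called with a pseudocount of 64 (-0.70), nor Msx1 (-1.19) and Smad7 (-1.03) with a pseudocount of 1. Hey1, Bambi and Msx1 were above the array median on 0 of the 3 hair germ arrays and Smad6 on 1, so their hair germ values were weak signals.

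**Figure D5:**
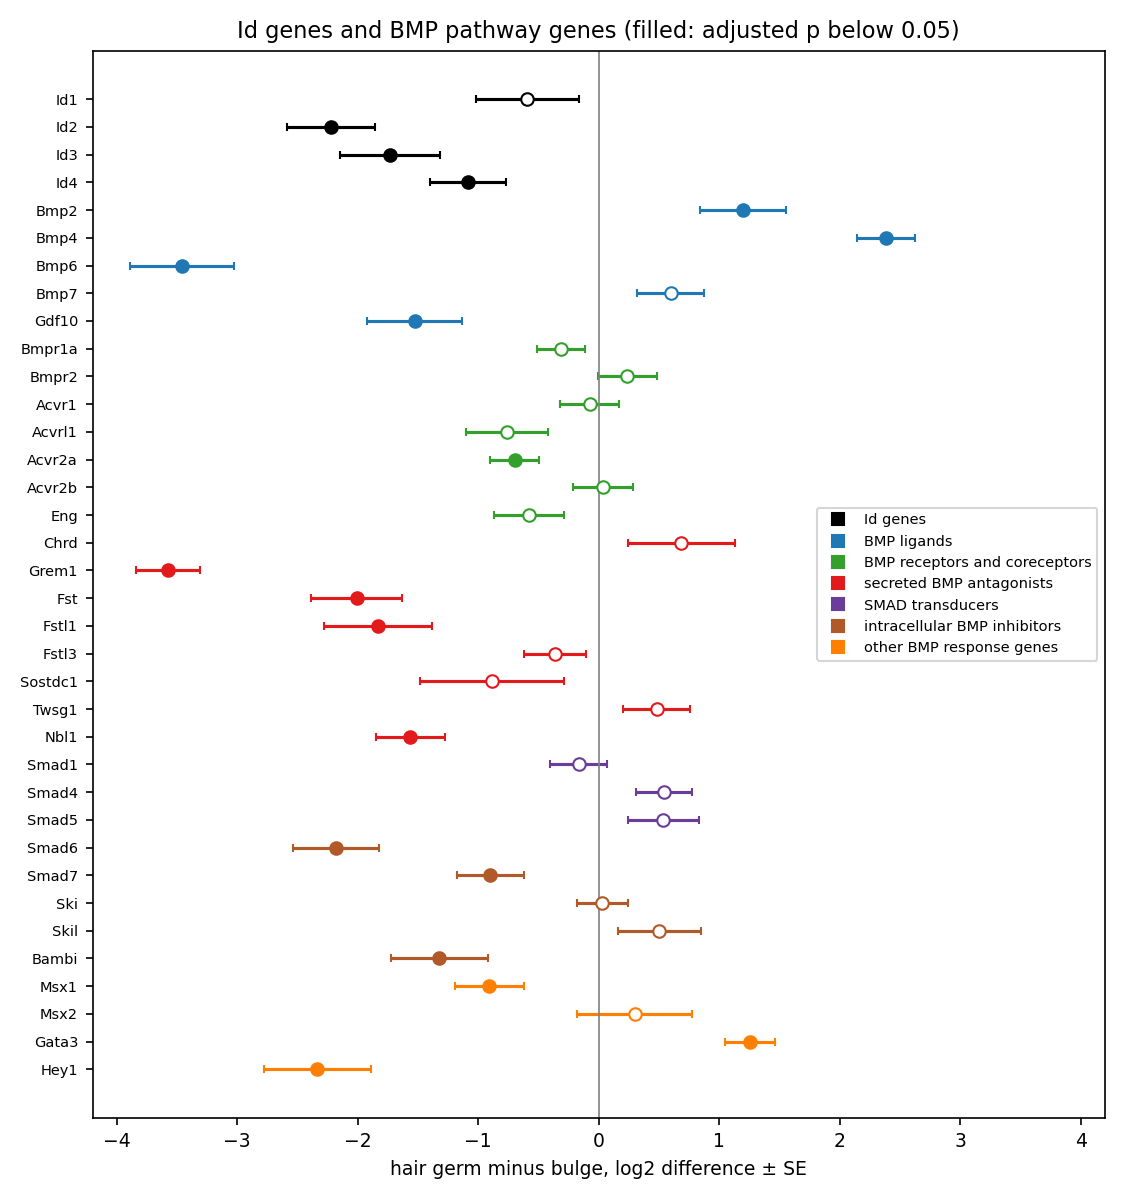
Log2 difference between hair germ and bulge, with its standard error, for the 4 Id genes and the tested genes of the BMP pathway, coloured by role. Filled points have a limma adjusted p below 0.05. Id2 (-2.22) lies near Smad6 (-2.18) and Hey1 (-2.34), and Bmp4 (2.38) lies on the other side of 0.

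Over the days, some of these genes had their highest dermal papilla value on day 69, as Id2 did. Between days 43 and 69 in dermal papilla, 2 of the 4 Id genes, 1 of 5 ligands, 3 of 8 antagonists and 3 of 7 response genes were at least 2-fold higher, beside 6.32% of tested genes, and none of them was 2-fold lower, beside 2.55%. On the same arrays 7 of 9 dermal papilla markers were at least 2-fold higher and the keratinocyte marker sum went from 1783 to 592, and their part in these differences was not tested. Sostdc1, a secreted antagonist also called ectodin, read 249, 665 and 2630.3 on days 43, 56 and 69, and the other antagonists, Fst and Fstl3, read 36.8, 16.2 and 166, and 57.1, 80.7 and 132. Bmp6 read 43.7, 45.1 and 209.7, Bambi 341, 506 and 972, Hey1 42.6, 52.4 and 156 and Msx2 34.5, 54.4 and 102. Id2 read 173, 139 and 487 on those arrays and Id1 80.8, 74.9 and 89.0. With 1 array a day these differences have no replicate check.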

How the data were processed

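The authors deposited a linear intensity, called the signal, for each probe set on 9 arrays. Per the submitters' processing notes they were made with MAS5 in GCOS; the scaling is not given in the sources used here. Per the labels' protocols, RNA went through 2 rounds of amplification. Of 22690 probe sets, 64 were controls, 20380 had 1 gene in the platform annotation, 691 several and 1555 none, and 20351 symbols matched the RefSeq gene table.

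Signals were used as log2(signal + 16), unscaled. Probe sets above their own array's median on at least 3 arrays were kept (12801), and a gene was its brightest kept probe set. R 4.3.3 and limma 3.58.1 (eBayes with trend) fitted population and day as additive terms to all 9 arrays, with Benjamini-Hochberg adjustment, called below 0.05. With 1 array per population and day, days act as replicates of a population and no interaction could be tested. The fit was tested on simulated data.

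The members and lists were chosen with earlier results of these data known. Named list genes were up to 4 called members with the largest differences per direction, list and comparison, up to 2 where none was called, those at least 2-fold apart between days 43 and 69, and the 5 nearest profiles per Id gene; Bmpr1a and Smad1 were added after their values were seen. Alternatives were other pseudocounts (1 and 64), quantile normalization, median centring, no filter, the mean of a gene's probe sets, single probe sets, no day term, no trend, each array left out, and leaving out arrays with a GAPDH ratio above 6.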

Additional observations from a re-analysis of the deposited data

Results flagged for a closer look

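Id1 moved in opposite directions with day in the epithelial populations. In bulge its log2 level was -0.31 on day 56 and -0.81 on day 69 relative to day 43, whereas in hair germ it was 2.23 on day 56 and 0.37 on day 69 relative to day 43. With 1 array per population and day the difference between the populations was not tested. The hair germ arrays of days 43, 56 and 69 had GAPDH 3′/5′ ratios of 8.34, 2.97 and 7.90, and the part of that ratio in this pattern was not tested.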

How the results depend on the processing

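All 4 Id genes stayed called lower in dermal papilla than in bulge under every alternative run, and without a day term the counts called were 3, 4 and 3, as in the fit with it. The count lower in hair germ than in bulge was 3, ran from 1 to 4 without single arrays and was 0 without the arrays of high GAPDH ratio. In that setting, which leaves 1 hair germ array and 1 residual degree of freedom, the hair germ minus bulge differences were 0.89 for Id1, -1.52 for Id2, -0.72 for Id3 and -0.20 for Id4. Single arrays left out gave -1.29 to -0.069 for Id1, -2.22 to -1.22 for Id3 and -1.52 to -0.78 for Id4. Id4 was not called with a pseudocount of 1 (-1.10, limma adjusted p = 0.0681) or without the filter (-1.08, adjusted p = 0.0534). For dermal papilla minus hair germ, Id1 ran from -2.06 to -0.84 without single arrays. Id2 was -0.88 with the mean of its probe sets and was not called there. That mean includes 1422537_a_at, which is below the array median in both groups and gives no order of them. Day differences of the Id genes, of which none was called, changed sign in several settings. Without single arrays, day 69 minus day 43 ran from -0.63 to 0.30 for Id1, -0.26 to 0.78 for Id2 and -0.070 to 0.59 for Id4. Day 56 minus day 43 ran from -0.082 to 1.02 for Id1, -0.33 to 0.39 for Id2 and -0.48 to 0.37 for Id4, and day 69 minus day 56 from -0.24 to 0.79 for Id2, -0.86 to 0.0085 for Id3 and -0.084 to 0.77 for Id4. Without the arrays of high GAPDH ratio, Id3 was -0.065 for day 69 minus day 43, -0.16 for day 56 minus day 43 and 0.098 for day 69 minus day 56, and Id1 was -0.49 for day 56 minus day 43. For day 56 minus day 43, a pseudocount of 64 gave 0.00064 for Id2 and 0.040 for Id4, and the mean of probe sets gave 0.29 and 0.0097. The causes were not tested. Median centring moved the median of all genes for hair germ minus bulge from 0.10 to -0.11 and left the Id calls as they were. Arrays give no count depth, so their number limits what can be seen.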

Other observations

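The helix-loop-helix partners of the Id proteins and the cell cycle inhibitors often studied with them are described here by count. Of 9 tested partners, of 12 listed, limma called 2 higher and 1 lower in hair germ than in bulge, beside 12.2% and 7.56% of all tested genes. Bhlhe40 was higher by 2.81 (adjusted p = 0.000191), Ascl2 by 1.64 (adjusted p = 0.00101), and Hes6 differed by -1.17 (adjusted p = 0.0133), not called without the bulge array of day 43 (-1.01) or 69 (-1.08). The mesenchymal factors Twist1 and Twist2 were above the array median in dermal papilla alone, so the filter set their direction. Twist1 read 2336, 938 and 1474 there against 0.45 to 9.27 on the epithelial arrays, and Twist2 read 105, 149 and 216 against 0.78 to 25.0. Of the remaining 7 partners, 2 were higher in dermal papilla than in bulge, beside 16.1% of tested genes, among them the E protein gene Tcf4 (1.91, adjusted p = 0.000327), and 3 were lower, beside 19%, among them the E protein gene Tcf12 (-0.84, adjusted p = 0.0165). The Tcf12 call was lost without the bulge array of day 43 (-0.80) or 69 (-0.81) or the dermal papilla array of day 56 (-0.69) or 69 (-0.76), and 1 of the 3 lower calls was left without bulge day 43, bulge day 69 or dermal papilla day 56. Without the 3 arrays of high GAPDH ratio Bhlhe40 stayed called in hair germ (3.58, adjusted p = 0.00335), and Ascl2 (1.54, adjusted p = 0.0622) and Hes6 (-0.56, adjusted p = 0.398) did not.

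Of 5 tested CDK inhibitor genes, of 6 listed, Cdkn1a was called higher in hair germ than in bulge at 1.48 (limma adjusted p = 0.000757), beside 12.2% of all tested genes, but not with the mean of its probe sets (0.55, adjusted p = 0.107) nor without the arrays of high GAPDH ratio (1.21, adjusted p = 0.0656). In dermal papilla against bulge, Cdkn2b (-2.91, limma adjusted p = 0.000179) and Cdkn2c (-1.35, adjusted p = 0.00291) were lower, beside 19%. Cdkn1c was above the array median in dermal papilla alone, at 753, 154 and 371 against 27.1 to 28.5 in bulge and 7.42 to 15.6 in hair germ, so the filter set its direction.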
